A study of Mus musculus with 96 samples.

Results

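The 8 genes described here code for the channels and adhesion plaques through which heart cells are coupled: the connexins Gja1, Gja4, Gja5 and Gjc1, the desmosome genes Dsp, Pkp2 and Jup, and the cadherin Cdh2. They were chosen by name, with no threshold on a value, from the 50868 genes listed in every library. Total RNA was sequenced from 4 isolates of the hearts of male C57Bl/6J mice of 12 to 14 weeks: cardiomyocytes (CM), hematopoietic cells (HC), endothelial cells (EC) and fibroblasts (FB). Infarction was made by tying off the left anterior descending coronary artery for good, and hearts were collected 1, 3, 7, 14 or 28 days later, with hearts of unoperated mice as Day 0. The 96 libraries fall into 24 groups, 1 for each cell type and day, with 4 libraries in each, and RNA of 3 mice (2 where a sample was missing) went into every library. The study took the cell types of a day from the same mice, so libraries of different cell types are not independent of each other. All mice were wild type, and Day 0 mice had no sham operation, so surgery and infarction cannot be told apart. After collagenase digestion, CM were spun down at low speed, HC were bound by beads against CD45, EC by beads against CD144 in what flowed through, and FB were the cells that then attached to a dish, so each isolate can hold cells of another type. The replicates are called biological in one place and technical in another, and p-values measure the spread between these pools.

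Gap junction channels are built from connexins and let ions and small molecules pass directly between cells. Gja1 codes for Cx43, the main channel of the working ventricle, Gja5 for Cx40, known from atria, the conduction system and arterial endothelium, Gjc1 for Cx45, known from the conduction system and vascular smooth muscle, and Gja4 for Cx37, known from endothelium. At the intercalated disc, where cardiomyocytes meet end to end, these channels sit beside desmosomes and adherens junctions: Cdh2 (N-cadherin) is the adherens junction cadherin of the cardiomyocyte, Jup (plakoglobin) binds the tails of both classical and desmosomal cadherins, Pkp2 (plakophilin) links desmosomal cadherins to Dsp, and Dsp (desmoplakin) ties the plaque to desmin filaments. Human mutations of PKP2, DSP and JUP are known causes of arrhythmogenic cardiomyopathy, and after infarction Cx43 is known to be lost from the discs at the border of the scar.

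A RefSeq promoter (GRCm38.p6) was found by gene symbol for 5 of the 8 genes. Its start lies inside the gene span given below for Gja5, and a little upstream of the span for Gja1 and Jup. The 250 bases before the start are printed for the 3 channel-forming connexins among these genes, and for the adhesion gene Dsp as an example. That of Jup is given by its motifs alone. Capitals mark the letters of the motifs searched on both strands: the AP-1 site TGANTCA, the GC box GGGCGG, the T-box core GGTGTG and the NKX2 core AAGTG, none of which overlapped another.
Gja1, chr10:56377050-56377299, plus strand: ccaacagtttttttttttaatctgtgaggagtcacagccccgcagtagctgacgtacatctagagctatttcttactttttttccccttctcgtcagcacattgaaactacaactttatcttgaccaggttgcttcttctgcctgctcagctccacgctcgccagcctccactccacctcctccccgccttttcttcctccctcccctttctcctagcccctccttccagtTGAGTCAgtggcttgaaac
Gja4, chr4:127314040-127314289, minus strand: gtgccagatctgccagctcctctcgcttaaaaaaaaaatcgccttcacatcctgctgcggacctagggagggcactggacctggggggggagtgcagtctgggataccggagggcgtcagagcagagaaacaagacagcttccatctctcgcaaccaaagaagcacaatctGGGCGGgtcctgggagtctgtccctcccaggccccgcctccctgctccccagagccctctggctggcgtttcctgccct
Gja5, chr3:97032152-97032401, plus strand: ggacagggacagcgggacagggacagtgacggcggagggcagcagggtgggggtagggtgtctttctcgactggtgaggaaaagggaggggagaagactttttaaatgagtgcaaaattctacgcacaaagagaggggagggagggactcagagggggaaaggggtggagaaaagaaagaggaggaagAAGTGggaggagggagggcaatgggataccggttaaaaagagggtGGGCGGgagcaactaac
Dsp, chr13:38151044-38151293, plus strand: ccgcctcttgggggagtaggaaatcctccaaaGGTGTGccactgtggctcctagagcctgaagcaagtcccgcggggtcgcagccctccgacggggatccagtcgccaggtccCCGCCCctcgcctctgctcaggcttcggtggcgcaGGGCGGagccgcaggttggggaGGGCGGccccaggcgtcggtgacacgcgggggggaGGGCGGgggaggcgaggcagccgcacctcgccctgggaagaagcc
The AP-1 site was found in 6.75% of 32851 promoters of the same length, and of the 5 member promoters only in that of Gja1, 19 bases before the start. The GC box was found in 32.7% of promoters, at 4 places in that of Dsp, at 2 in that of Jup, at 1 each in those of Gja4 and Gja5 and at none in that of Gja1. The T-box core, in 16.3% of promoters, was found in those of Dsp and Jup, and the NKX2 core, in 40.7%, in that of Gja5. A match is a run of letters and was not tested as a binding site.

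In mm10, Gja1 lies on chromosome 10 at 56377330 to 56402513, Gja4 on chromosome 4 at 127311421 to 127314039, Gja5 on chromosome 3 at 96904693 to 97077416, and Gjc1 on chromosome 11 at 102799579 to 102819700. Dsp lies on chromosome 13 at 38151294 to 38198577, Pkp2 on chromosome 16 at 16213318 to 16272712, Cdh2 on chromosome 18 at 16588877 to 16809246, and Jup on chromosome 11 at 100368958 to 100397763. Gja5 spans 4 genes of the other strand, among them Gpr89, and Cdh2 overlaps the antisense gene Gm15485. The sources used here do not give the strandedness of the libraries, so reads of those genes cannot be told apart from reads of Gja5 and Cdh2 within the shared stretches.

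The depth of CM libraries was 13503024 to 55758471 estimated reads, that of EC libraries 12445124 to 33868990, that of FB libraries 2664338 to 36545715 and that of HC libraries 16214419 to 40395291. Ribosomal RNA genes, those of mitochondria included, held 53.1% to 63.5% of these reads in CM. They held 10.4% to 26.5% in EC, 2.21% to 19.6% in FB and 7.98% to 27.5% in HC. Markers named by the study were highest in their own isolate, but every isolate held others: the summed level of 14 abundant CM transcripts at Day 0 was 35022 TPM in HC and 39083 TPM in EC, against 872 TPM in FB. Among the 4 defining markers of each type, the 1 that was at 0 in all 4 libraries of a group was Itgax, in CM at Day 0. Of the 96 libraries, 8 were shallow or shared an unusual set of abundant transcripts (FB Day 3 replicates 2 and 3, FB Day 28 replicate 4, EC Day 0 replicates 1 and 2, EC Day 28 replicate 3, HC Day 28 replicates 2 and 4), and results that rest on them are given with and without them. The study itself left out 2 FB libraries of Day 3 and 1 HC library of Day 28 as outliers of the total RNA data, and does not number them. The main fits here keep all 96 libraries. Rescaling to nuclear protein-coding genes, in place of the scaling used for the tests, moved the median log2 change of all genes by between -0.29 (HC at Day 3) and 0.35 (EC against the other types), and directions that turn with it are named beside the result.

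Levels are given in 2 units. CPM is the estimated read count per 1000000 reads of a library after TMM scaling, and serves to compare days within a cell type. Coding-scaled TPM is the deposited length-corrected value after the nuclear protein-coding genes of each library were rescaled to 1000000, and serves to compare genes and cell types. After ± stands the SD over 4 libraries where the value is a level, and the standard error of the fit where it is a log2 change. Calls were made in edgeR's quasi-likelihood test, below an adjusted p of 0.05, and "rose" and "fell" are used for called genes alone.

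At Day 0, Gja1 was the most abundant of the 4 connexins in every isolate. Its level per length was 229 ± 37.6 coding-scaled TPM in CM, followed by EC with 119 ± 46.9, FB with 94.1 ± 14.0 and HC with 71.0 ± 12.5. CM stood above the others without overlap, and the ranges of EC and FB, and of FB and HC, overlapped. Gja4 had the order EC (70.9 ± 13.7), FB (13.4 ± 2.29), HC (7.48 ± 1.88) and CM (1.84 ± 0.969 coding-scaled TPM), with no overlap between neighbours. Gja5 was highest in EC (17.2 ± 6.55), followed by HC (4.30 ± 2.16) and CM (2.71 ± 1.00), which overlapped, and by FB (0.920 ± 0.213 coding-scaled TPM). Gjc1 stood at 64.2 ± 2.97 in EC and 25.1 ± 1.20 in FB, above HC (9.60 ± 1.33) and CM (6.86 ± 1.26 coding-scaled TPM), which overlapped each other. At Day 28 the order of Gja1 had closed up, with 165 ± 26.1 in EC and 164 ± 53.7 coding-scaled TPM in CM and overlapping ranges.

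The 3 adhesion genes Dsp, Pkp2 and Cdh2 were highest in CM and lowest in FB at Day 0. Dsp had 179 ± 27.0 coding-scaled TPM in CM, 65.3 ± 17.9 in HC, 64.1 ± 13.4 in EC and 1.90 ± 0.192 in FB. Pkp2 had 77.6 ± 11.9 in CM, 18.4 ± 2.09 in EC, 18.3 ± 3.42 in HC and 0.750 ± 0.113 coding-scaled TPM in FB, and Cdh2 had 109 ± 15.8, 25.4 ± 7.87, 31.4 ± 8.14 and 4.43 ± 0.268 in the same order of cell types. For each of these genes the ranges of EC and HC overlapped and no other neighbours did. Jup had another order, with 398 ± 21.3 coding-scaled TPM in EC, 197 ± 10.5 in FB, 102 ± 6.06 in HC and 50.0 ± 20.5 in CM, and no overlap. The plot of levels by cell type and day shows all 8 genes.

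**Figure D1:**
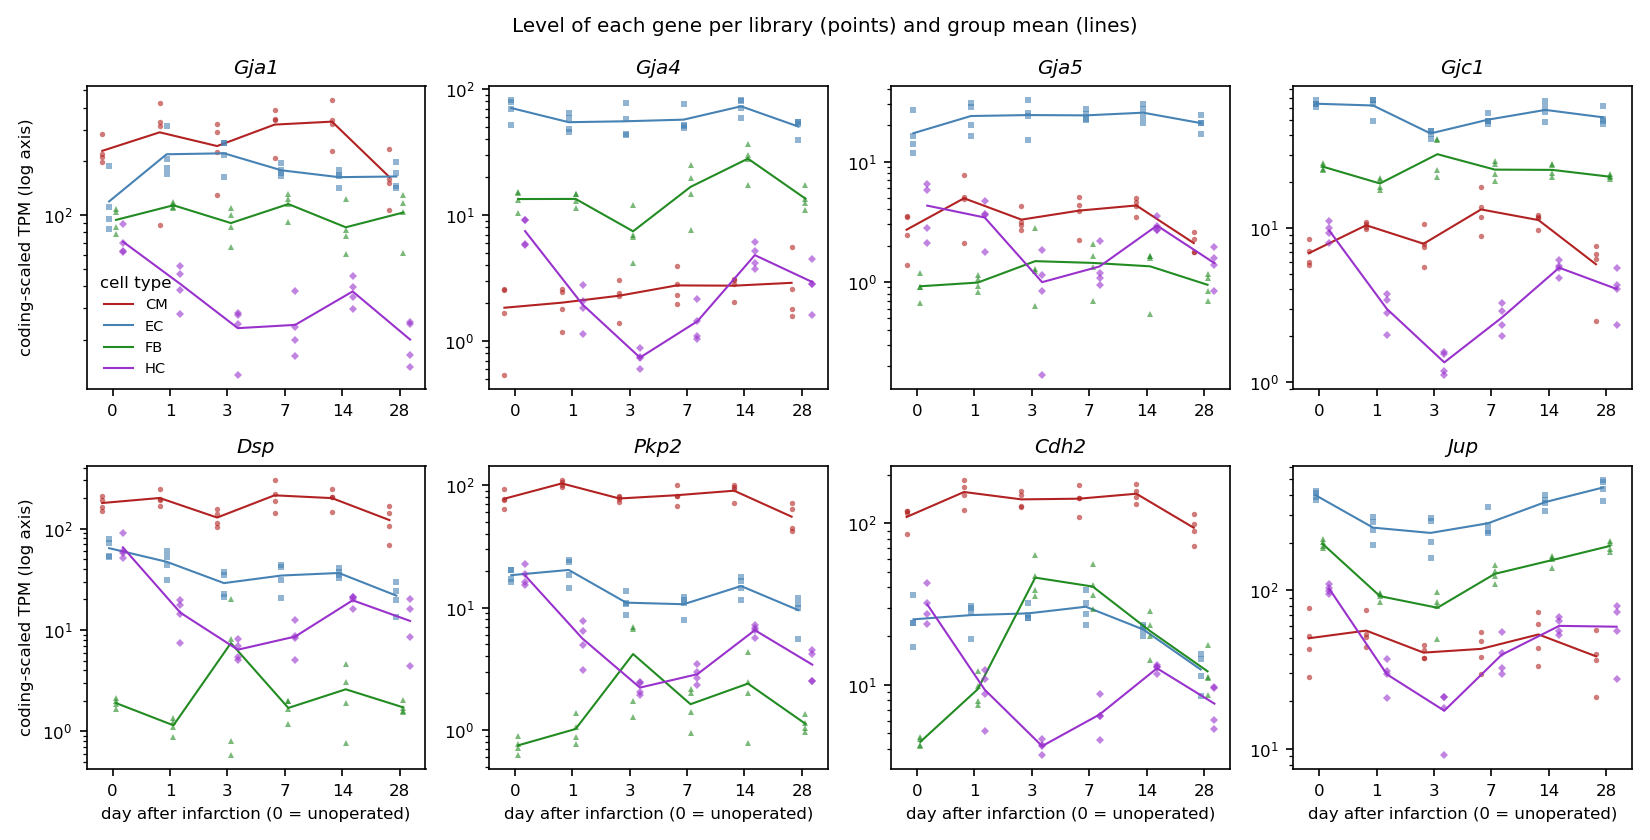
Coding-scaled TPM (log axis) of the 8 genes by day after infarction (days evenly spaced), 1 panel a gene, with a point for each of the 96 libraries and a line through the group means of each cell type. Dsp, Pkp2 and Cdh2 are highest in CM, Gja4, Gjc1 and Jup in EC, and the Cdh2 mean in FB is 46.0 at Day 3 against 4.43 at Day 0.

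Over all days and 22100 genes, each cell type was compared with the mean of the other 3. Cell type and library batch coincided, so they cannot be told apart in these values. In CM 6 members were higher and 1 lower, where 29.8% of all genes were higher and 51.5% lower. Pkp2 (log2 difference 5.23 ± 0.07), Dsp (5.21 ± 0.11) and Cdh2 (4.08 ± 0.06) stood furthest above the other isolates, Gja1 was higher by 2.85, and Gja4 was lower (-0.81). Gja5 (1.07) and Gjc1 (0.39) were also called higher in CM, but on coding-scaled TPM the differences were -0.30 and -0.93, and at Day 0 alone that of Gjc1 was -0.44, so no direction is given for them. Jup differed by 0.05 (95% interval -0.05 to 0.15, adjusted p = 0.376 in edgeR), and by -1.42 on coding-scaled TPM.

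In EC 5 members were higher and 1 lower, with 40.5% and 30.5% of all genes. Gja5 (2.73 ± 0.10), Gja4 (2.67 ± 0.09), Gjc1 (1.80 ± 0.04) and Jup (1.43 ± 0.05) were higher and Cdh2 was lower (-0.88). Gja1 was higher by only 0.14 over all days, with a difference of -0.41 at Day 0 alone and no call without the shallow or unusual libraries (adjusted p = 0.0641, edgeR). Dsp (0.13, 95% interval -0.09 to 0.35) and Pkp2 (-0.10, 95% interval -0.24 to 0.05) were not called, and on coding-scaled TPM Pkp2 differed by 0.43. Dsp was called higher on coding-scaled TPM (0.88, adjusted p = 2.38e-09, limma) and without the shallow or unusual libraries (0.25, adjusted p = 0.00649, edgeR). In FB 3 members were higher and 5 lower (39.6% and 34.1% of all genes). Gja4 (0.70), Gjc1 (0.63) and Jup (0.25) were the higher ones, and Dsp (-4.75 ± 0.16) and Pkp2 (-3.79 ± 0.10) were the lowest relative to the other isolates. In HC all 8 were lower (43.9% of all genes were higher and 34.3% lower), from -0.59 for Dsp to -2.82 for Gjc1. At Day 0 alone, however, Dsp and Pkp2 were higher in HC, by 0.89 and 0.42, and Gja5 (-0.05, adjusted p = 0.895, edgeR) and Cdh2 (-0.09, adjusted p = 0.567) were not called. Day 0 alone also ended the calls of Cdh2 in EC (-0.26, adjusted p = 0.0995) and Gja4 in FB (0.19, adjusted p = 0.531).

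The first question of the time course was whether cardiomyocytes changed their junction genes after infarction. In CM few of the 8 genes were called: Cdh2 and Pkp2 rose at Day 1, Gjc1 rose at Day 3, Day 7 and Day 14, and Dsp fell at Day 3. At Day 1, 2 members rose and 0 fell, where 6.81% of 14530 genes rose and 4.58% fell. At Day 3, 1 rose and 1 fell (16% and 14.6% of all genes), at Day 7, 1 rose and 0 fell (8.93% and 4.35%), at Day 14, 1 rose and 0 fell (8.05% and 5.71%), and at Day 28, 0 rose and 0 fell (2.48% and 1.09%). Where a count is 0 on these days, 0 members had an unadjusted p under 0.05 in that direction in edgeR and 0 were called by DESeq2. In a bulk isolate, fewer cells of a type and less RNA per cell cannot be told apart, here and in each comparison that follows.

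Cdh2 was higher at Day 1, with 166, 150.2, 146 and 145 CPM against 121, 97.5, 120.2 and 115 CPM at Day 0. All 4 Day 1 libraries lay above the Day 0 libraries, and the log2 fold change was 0.42 ± 0.11 (adjusted p = 0.0102, edgeR), with no call on any later day. With only the 8 libraries of the 2 days the adjusted p was 0.124, and on coding-scaled TPM the change was 0.50 (adjusted p = 0.16, limma). Pkp2 also rose at Day 1 (53.1, 44.6, 57.4 and 51.3 CPM, against 44.9, 38.5, 37.6 and 38.3 CPM at Day 0, log2 0.37 ± 0.10, adjusted p = 0.0158, edgeR). Day 0 replicate 1 of Pkp2 overlapped with the Day 1 libraries, and the call ended without Day 0 replicate 4 (adjusted p = 0.0537) or Day 1 replicate 3 (0.0596).

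Dsp fell at Day 3, when its libraries held 223, 244, 197 and 210.2 CPM, against 276, 299.8, 312 and 356 CPM at Day 0. The groups did not overlap, and the log2 fold change was -0.51 ± 0.16 (adjusted p = 0.0176, edgeR). At Day 7 Dsp had 312 ± 32.4 CPM and was not called. The call at Day 3 ended without Day 0 replicate 4 (adjusted p = 0.0764), Day 3 replicate 3 (0.0559) or Day 3 replicate 4 (0.0545). In the same comparison 6 of the 14 abundant CM transcripts fell and 0 rose, with a median log2 change of -0.51 against -0.06 over all genes. Whether the change of Dsp is part of that decline was not tested.

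Gjc1, low in CM, was the connexin that rose there. It had 3.86, 3.65, 3.24 and 3.95 CPM at Day 3, against 3.10, 2.56, 2.39 and 3.06 CPM at Day 0 (log2 0.40 ± 0.14, adjusted p = 0.0279, edgeR), and changes of 0.43 at Day 7 and 0.41 at Day 14 (adjusted p = 0.0381 and 0.0483). At Day 1 its change was 0.40 (adjusted p = 0.061), and 0.40 (adjusted p = 0.0404) with the replicate number as a block. All 4 libraries of Day 3 and of Day 14 lay above Day 0, and those of Day 7 overlapped it. Each of these calls ended when 1 of several libraries was left out, with an adjusted p of up to 0.0732 at Day 3 without Day 0 replicate 2, and on coding-scaled TPM limma kept the call at Day 7 and gave adjusted p = 0.702 at Day 3 and 0.0922 at Day 14. The 8 mesothelial markers and 3 of the 4 FB markers rose in CM at Day 3, as did both of the HC markers tested, while 0 of the 4 EC markers were called. The part of those cells in the level of Gjc1 was not tested.

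Gja1 itself was not called in CM on any day. Day 0 libraries held 165, 157, 169 and 174 CPM, those of Day 1 239, 215, 147 and 204 CPM, those of Day 3 179, 171, 159 and 152 CPM, those of Day 7 215, 175, 181 and 177 CPM, those of Day 14 192, 197, 239 and 184 CPM and those of Day 28 185, 171, 128 and 140.3 CPM. The groups overlapped with Day 0 except at Day 7 and Day 14, when all 4 libraries lay above it. The 95% interval of its log2 change was -0.29 to 0.27 at Day 3 and -0.37 to 0.19 at Day 28. These bounds hold for those days and for the TMM scaling of the test alone. In coding-scaled TPM the mean of Gja1 was 229 at Day 0, 291 at Day 1 and 244 at Day 3. It was 322 at Day 7, 334 at Day 14 and 164 at Day 28, so the size of a change depends on the scaling. Jup was between -0.40 (Day 7) and 0.14 (Day 1), and Gja4 and Gja5 were under 5 CPM in all 24 CM libraries.

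In EC, Gja1 rose early, and Gjc1, Dsp, Pkp2 and later Cdh2 fell. At Day 1, 1 member rose and 0 fell, where 9.87% of 18132 genes rose and 9.12% fell. At Day 3, 1 rose and 4 fell (23.2% and 22.3% of all genes), at Day 7, 0 rose and 3 fell (18% and 19.6%), at Day 14, 0 rose and 4 fell (12.8% and 14.3%), and at Day 28, 0 rose and 4 fell (16.3% and 17.4%). Each count of 0 was also 0 at an unadjusted p under 0.05 in edgeR and 0 in DESeq2. The map of log2 changes against Day 0 sets these beside the other cell types.

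**Figure D2:**
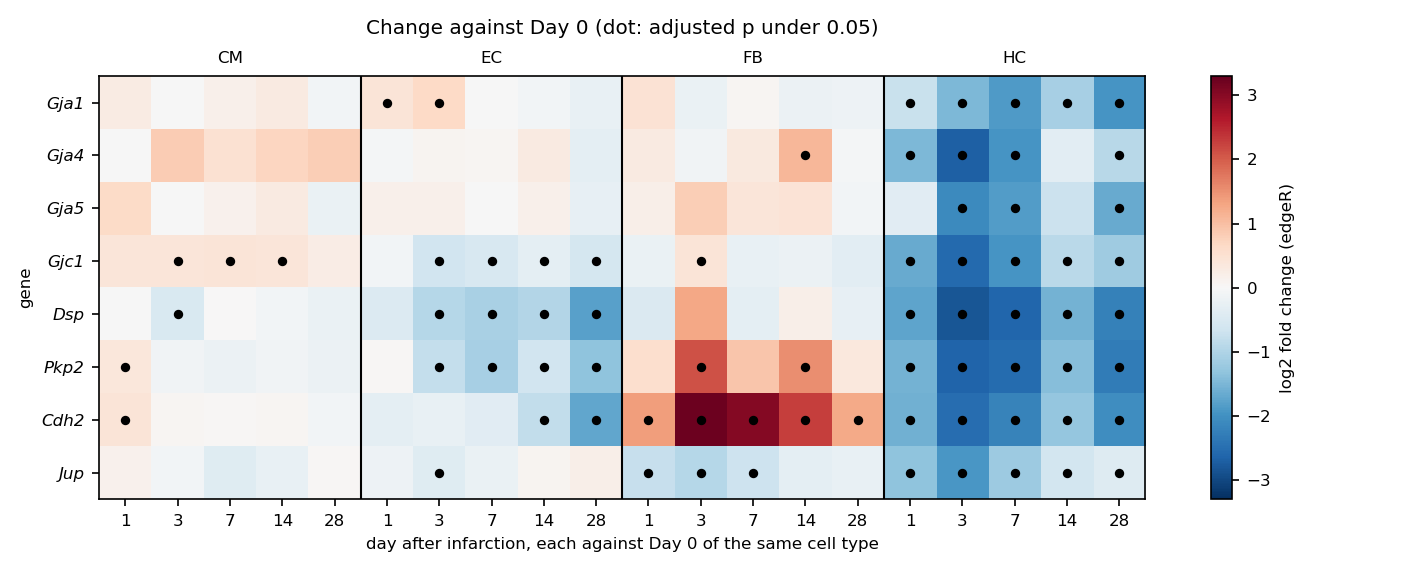
Log2 fold change of each gene (rows) on each later day against Day 0 in CM, EC, FB and HC (columns, blue lower and red higher). A dot marks an adjusted p under 0.05 in edgeR's quasi-likelihood test, and the map shows 37 of 40 cells with a dot in HC, 17 in EC, 12 in FB and 6 in CM. Over all genes and the 5 days, 28668 calls were made in HC (18934 genes tested on each day) and 29521 in EC (18132 genes). In FB there were 17854 (18644 genes) and in CM 10540 (14530 genes).

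Gja1 had 362, 308, 333 and 332 CPM at Day 3, against 205, 194, 183 and 262 CPM in EC at Day 0. Every Day 3 library lay above every Day 0 library, and the log2 fold change was 0.66 ± 0.10 (adjusted p = 2.55e-05, edgeR). At Day 1 the libraries held 304, 283, 237 and 314 CPM and overlapped Day 0 (log2 0.43 ± 0.10, adjusted p = 0.00633), and this call ended without the shallow or unusual libraries (0.36, adjusted p = 0.12). From Day 7 on Gja1 was not called, with 208 ± 13.4 CPM at Day 7 and 179 ± 13.8 CPM at Day 28. On coding-scaled TPM the change at Day 7 was 0.64 (adjusted p = 0.0232, limma), where edgeR gave -0.02, so whether Gja1 was back at its Day 0 level at Day 7 depends on the scaling. While Gja1 rose, 13 of the 14 abundant CM transcripts fell in EC at Day 3, so that Gja1 per 1000 TPM of their sum was 15.7 at Day 3 and 3.10 at Day 0. Of the 4 FB markers, Pdgfra rose in EC at Day 3 (log2 1.45 ± 0.27, adjusted p = 0.000169, edgeR). Without the shallow or unusual libraries 1 of these markers rose and 0 fell. The part of fibroblast RNA in the level of Gja1 was not tested.

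Gjc1 had 31.6, 30.5, 31.9 and 31.7 CPM at Day 3, against 45.6, 50.3, 53.3 and 45.0 CPM at Day 0. The groups lay apart by more than 10 CPM, with a log2 fold change of -0.63 ± 0.11 (adjusted p = 6.68e-05, edgeR). The log2 changes at Day 7, Day 14 and Day 28 were -0.52, -0.32 and -0.58, all called, but the call at Day 14 (adjusted p = 0.0293, edgeR) ended when any 1 of 5 libraries was left out. On log2(TPM + 1) of deposited TPM the change was -0.28 at Day 3 (adjusted p = 0.377, limma) and positive at Day 7, Day 14 and Day 28, so the fall of Gjc1 depends on the scaling. Of the 8 markers of mural cells, in which Gjc1 is known to be used, 7 fell at Day 3. Their sum was 1802 TPM on Day 0, and 1297, 841, 1291, 1551 and 1123 TPM on the 5 later days in their order. Gjc1 had a mean of 62.5 coding-scaled TPM at Day 1, against 64.2 at Day 0, and was not called at Day 1. The part of mural cells in the level of Gjc1 was not tested. Without the shallow or unusual libraries 14 of the 17 calls in EC were left, since Gja1 at Day 1, Gjc1 at Day 14 and Pkp2 at Day 14 (adjusted p = 0.126, edgeR) did not pass. The other endothelial connexins were not called: Gja4 had a log2 change of 0.09 at Day 3 (95% interval -0.19 to 0.38) and Gja5 one of 0.18 (-0.17 to 0.52), and neither passed the test on any day against Day 0.

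Dsp in EC had 51.4, 75.3, 35.3 and 62.4 CPM at Day 28, against 173, 239, 145 and 219 CPM at Day 0. All Day 28 libraries lay below Day 0, and the log2 fold change was -1.79 ± 0.24 (adjusted p = 1.37e-05, edgeR). At Day 3, Day 7 and Day 14 it was -0.95, -1.07 and -0.97, each called. Pkp2 followed with -0.80, -1.09, -0.63 and -1.34 on the same days (adjusted p from 2.12e-05 to 0.0162). Cdh2 fell at Day 14 (-0.81) and Day 28, when it had 19.2, 28.1, 14.8 and 25.7 CPM, against 65.6, 89.6, 59.8 and 71.6 CPM at Day 0 (log2 -1.71 ± 0.18, adjusted p = 1.61e-06). The call of Cdh2 at Day 14 ended on coding-scaled TPM (-0.15, adjusted p = 0.594, limma). On deposited TPM, as log2(TPM + 1) in limma, Dsp was -0.12 at Day 7 and -0.02 at Day 14 and Pkp2 was -0.22, -0.02, 0.26 and -0.06 on the 4 days, none of them called. On that scale Cdh2 was called higher at Day 14 (0.36, adjusted p = 0.0427, limma) and was not called at Day 28 (-0.11, adjusted p = 0.518). The falls of Cdh2 thus depend on the scaling.

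Transcripts of cardiomyocytes were also lower in EC after infarction. The summed 14 CM transcripts in EC were 39083 TPM on Day 0, and 20539, 14505, 14022, 18085 and 8471 TPM on the 5 later days in their order. At Day 1, when 0 members fell, the mean coding-scaled TPM was 47.1 for Dsp, 20.3 for Pkp2 and 27.0 for Cdh2. At Day 0 it was 64.1, 18.4 and 25.4 for these genes in the same order. Dsp per 1000 TPM of that sum had group means between 1.64 and 2.62 over the 6 days. Pkp2 per 1000 TPM ranged from 0.472 to 1.16, Cdh2 from 0.656 to 2.31 and Jup from 10.3 to 58.5. The part of cardiomyocyte RNA in the levels of Dsp, Pkp2 and Cdh2 in EC was not tested.

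Jup, the most abundant member in EC, fell at Day 3, with 186, 135, 172 and 127 CPM against 213, 201, 207 and 205 CPM at Day 0. All Day 3 libraries lay below Day 0 (log2 -0.41 ± 0.10, adjusted p = 0.00283, edgeR). At Day 28 it had 264, 250.1, 229 and 205 CPM and was not called against Day 0 (0.20, adjusted p = 0.144). On coding-scaled TPM Jup was also called lower at Day 1 (-0.69, adjusted p = 0.0125, limma) and Day 7 (-0.60, adjusted p = 0.0101). On log2(TPM + 1) of deposited TPM the call at Day 3 ended (-0.52, adjusted p = 0.22, limma). There Jup was called higher at Day 28 (0.98, adjusted p = 0.0029, limma). The 4 EC markers summed to 2243 TPM at Day 3 and 2525 TPM at Day 0 with overlapping ranges. Among them Kdr (log2 -0.84 ± 0.13) and Flt1 (-0.48 ± 0.11) fell and Pecam1 (0.34 ± 0.10) rose at Day 3. Without the shallow or unusual libraries Pecam1 was not called (0.24, adjusted p = 0.139, edgeR).

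In FB, Cdh2 rose on every day after infarction and Jup fell up to Day 7, while the other calls rested on few libraries. At Day 1, 1 member rose and 1 fell, where 11.6% of 18644 genes rose and 6.36% fell. At Day 3, 3 rose and 1 fell (25.8% and 23.3% of all genes), at Day 7, 1 rose and 1 fell (9.84% and 4.53%), at Day 14, 3 rose and 0 fell (8.25% and 2.62%), and at Day 28, 1 rose and 0 fell (2.88% and 0.606%). At Day 14 and at Day 28, 1 member in the downward direction had an unadjusted p under 0.05 in edgeR and 0 were called by DESeq2.

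For Cdh2 the Day 0 libraries held 11.9, 13.3, 11.4 and 12.2 CPM. Day 1 libraries held 29.0, 37.0, 25.6 and 35.5 CPM, those of Day 3 115, 119, 75.8 and 144 CPM, those of Day 7 94.1, 64.9, 102 and 139.9 CPM, those of Day 14 70.3, 51.3, 69.9 and 44.2 CPM and those of Day 28 37.2, 20.5, 27.1 and 31.0 CPM. Every library after infarction lay above every Day 0 library. The log2 fold changes were 1.38, 3.23 ± 0.24 at Day 3 (9.38-fold), 3.04, 2.27 and 1.25, with adjusted p-values from 1.44e-09 at Day 3 to 0.00184 at Day 28 in edgeR, and the call held on each day when any 1 library was left out. On log2(TPM + 1) of deposited TPM it ended at Day 1 (0.62, adjusted p = 0.23, limma) and Day 28 (0.28, adjusted p = 0.418).

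In the same FB libraries mesothelial markers rose, while genes of the mural list moved in both directions. All 8 mesothelial markers were called higher at Day 3, and their sum was 51.3 TPM on Day 0, and 82.0, 197, 362, 335 and 150.0 TPM on the 5 later days in their order. The mural list, which includes the smooth muscle actin gene Acta2, summed to 341 TPM on Day 0, and 249.9, 731, 576, 438 and 316 TPM on the 5 later days in their order, with 2 of 8 genes higher and 3 lower at Day 3. The higher ones were Acta2 (log2 4.20 ± 0.33) and Tagln (3.49 ± 0.30), and Kcnj8 (-1.84 ± 0.28) and Abcc9 (-1.83 ± 0.17) were among the lower ones. The 4 FB markers fell at Day 3, to 529 TPM against 1139 TPM at Day 0. The part of mesothelial and mural cells in the level of Cdh2 was not tested.

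**Figure D3:**
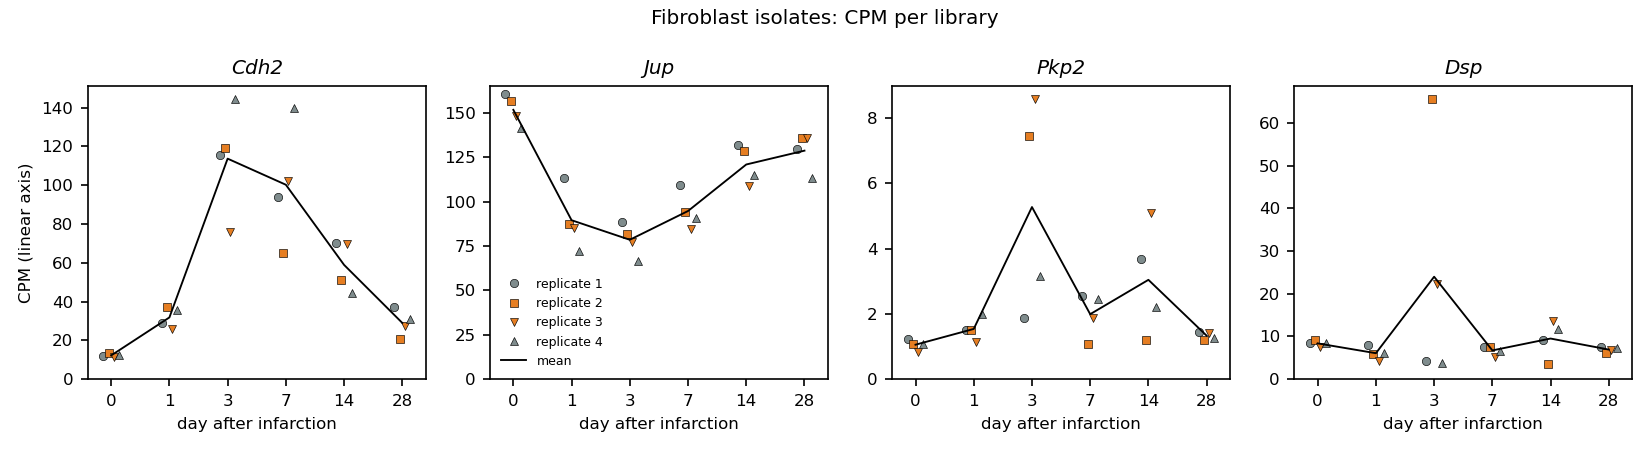
CPM of Cdh2, Jup, Pkp2 and Dsp in each of the 24 FB libraries by day (linear axis from 0), with a line through the mean of 4. Orange points are replicates 2 and 3, which hold 65.5 and 22.2 CPM of Dsp at Day 3 against a Day 0 mean of 8.36, while all Day 3 libraries of Cdh2 lie above Day 0.

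Jup fell over the first week in FB. It had 88.3, 81.8, 77.3 and 66.6 CPM at Day 3, against 160.4, 157, 148 and 142 CPM at Day 0. The groups did not overlap, and the log2 changes were -0.76 at Day 1, -0.95 ± 0.13 at Day 3 (adjusted p = 3.86e-06, edgeR) and -0.68 at Day 7. At Day 14 (-0.33, adjusted p = 0.0996) and Day 28 (-0.24, adjusted p = 0.314) it was not called, although all 4 libraries of each of these days still lay below Day 0. On log2(TPM + 1) of deposited TPM the calls at Day 1 and Day 7 ended (adjusted p = 0.14 and 0.0771, limma).

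The other calls in FB rest on few libraries. Pkp2 had 1.89, 7.43, 8.59 and 3.17 CPM at Day 3, against 1.23, 1.08, 0.842 and 1.07 CPM at Day 0 (log2 2.10 ± 0.45, adjusted p = 0.000672, edgeR). Gjc1 had 21.3, 42.6, 41.9 and 21.8 CPM at Day 3, against 20.1, 22.0, 23.6 and 24.1 CPM at Day 0 (log2 0.43 ± 0.17, adjusted p = 0.0395). Dsp had 4.32, 65.5, 22.2 and 3.79 CPM at Day 3, against 8.34, 9.23, 7.46 and 8.42 CPM at Day 0, and was not called (log2 1.27 ± 0.60, adjusted p = 0.0875). In all 3 genes the high values are those of Day 3 replicates 2 and 3, which are also the shallowest libraries and hold the most CM transcripts of the FB libraries (a sum of up to 5500 TPM). Of the 14 abundant CM transcripts 12 rose and 0 fell in FB at Day 3 (1 and 4 without these and the other shallow or unusual libraries), and their part in the levels of Pkp2, Gjc1 and Dsp was not tested. Without the shallow or unusual libraries the log2 change of Gjc1 was -0.045 (adjusted p = 0.707) and that of Dsp -1.01 (adjusted p = 0.0261), so that the direction of both turned and Pkp2 kept its call (1.25, adjusted p = 0.0204), while DESeq2 on all libraries called Dsp higher (adjusted p = 0.016). Gjc1 was then also called lower at Day 7 (-0.20, adjusted p = 0.0496, edgeR) and Day 28 (-0.36, adjusted p = 0.0125), so that 15 member results were called in FB, against 12 with all libraries.

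At Day 14, Gja4 had 18.6, 7.04, 11.2 and 12.5 CPM, against 6.79, 6.36, 4.45 and 5.33 CPM at Day 0. The groups did not overlap (log2 1.11 ± 0.29, adjusted p = 0.0144, edgeR), and the call ended without Day 14 replicate 1 (adjusted p = 0.104) or Day 0 replicate 3 (0.0647). It also ended on coding-scaled TPM (0.98, adjusted p = 0.057, limma) and on log2(TPM + 1) of deposited TPM (0.23, adjusted p = 0.515, limma). At Day 3 Gja4 was called lower on coding-scaled TPM (-0.83, adjusted p = 0.0251, limma). The 4 EC markers summed to 91.5 to 285 TPM in the Day 14 libraries and 115 to 195 TPM at Day 0. Pkp2 rose at Day 14 as well (1.53, adjusted p = 0.016), with overlapping groups and a call that ended without any of 3 libraries. Gja1 in FB was not called on any day, with log2 changes between -0.22 at Day 3 and 0.48 at Day 1, where it passed without the shallow or unusual libraries (0.51, adjusted p = 0.00392), and Gja5 stayed under 10 CPM in all 24 libraries.

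In HC all members that were called fell. At Day 1, 0 rose and 7 fell, where 18% of 18934 genes rose and 24% fell. At Day 3, 0 rose and 8 fell (23.2% and 23.2% of all genes), at Day 7, 0 rose and 8 fell (14.2% and 14.2%), at Day 14, 0 rose and 6 fell (6.1% and 6.8%), and at Day 28, 0 rose and 8 fell (11.3% and 10.4%). On none of these days did any member have an unadjusted p under 0.05 in the upward direction, and DESeq2 called 0 there. The median log2 change of the members at Day 3 was -2.54, against -0.02 over all genes. The HC files of Day 1 and Day 7 list transcripts, and those of Day 0, Day 3, Day 14 and Day 28 list genes. At Day 1 and Day 7 the day and the kind of file therefore cannot be told apart. The ranges of effective length overlapped between both kinds of file for each of the 8 members.

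Dsp had 37.4, 40.5, 34.1 and 40.1 CPM at Day 3, against 227, 374, 262 and 217 CPM at Day 0. The lowest Day 0 library stood more than 5 times above the highest Day 3 library, and the log2 fold change was -2.83 ± 0.32 (adjusted p = 3.08e-07, edgeR). Jup had 19.0, 19.7, 21.2 and 17.5 CPM at Day 3, against 72.1, 73.4, 75.0 and 73.3 CPM at Day 0, with a narrow spread in both groups (log2 -1.92 ± 0.12, adjusted p = 5.83e-11). Gja1, which had 49.4, 53.8, 45.7 and 42.5 CPM at Day 3 and 100.4, 161, 142 and 134 CPM at Day 0, had the smallest fitted change of the 8 (log2 -1.49 ± 0.21). The other 5 members changed by -2.68 (Gja4), -2.63 (Pkp2), -2.57 (Gjc1), -2.52 (Cdh2) and -2.09 (Gja5), with no overlap between Day 3 and Day 0.

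The members did not return to Day 0 by Day 28. Pkp2 had 5.86, 5.72, 3.44 and 3.59 CPM at Day 28, against 19.4, 27.7, 25.2 and 20.0 CPM at Day 0 (log2 -2.31 ± 0.21), and Jup had 59.7, 53.1, 46.4 and 58.6 CPM, against 72.1, 73.4, 75.0 and 73.3 CPM (log2 -0.43 ± 0.11, adjusted p = 0.00856, edgeR). The 3 results without a call were Gja5 at Day 1 (-0.37) and Gja4 and Gja5 at Day 14 (-0.35 and -0.71). Gja4 at Day 28 (-0.93, adjusted p = 0.0142) lost its call without Day 0 replicate 2 (adjusted p = 0.069) or Day 0 replicate 4 (0.0548). Without HC Day 28 replicates 2 and 4 neither Gja4 (adjusted p = 0.0735) nor Gja5 (0.126) passed at Day 28, and the other 35 calls in HC were kept. On log2(TPM + 1) of deposited TPM 11 of the 37 calls ended, among them those of Jup at Day 7, Day 14 and Day 28 (adjusted p = 0.0791, 0.575 and 0.465, limma) and of Gja1 at Day 14 (0.42).

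Markers of CM, EC, FB and mural cells fell in HC at Day 3 as well. The summed 14 CM transcripts were 35022 TPM on Day 0, and 6288, 3268, 4440, 11923 and 7353 TPM on the 5 later days in their order, and all 14 fell at Day 3. The 4 EC markers summed to 44.6 TPM at Day 3, against 291 TPM at Day 0, and the 8 mural markers to 35.1 TPM, against 268 TPM. Of the 4 HC markers 3 rose at Day 3. Dsp per 1000 TPM of the CM sum had group means from 1.60 to 2.30 in HC over the 6 days, and Jup from 2.99 to 8.82. The parts of these cells in the levels of the members in HC were not tested.

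**Figure D4:**
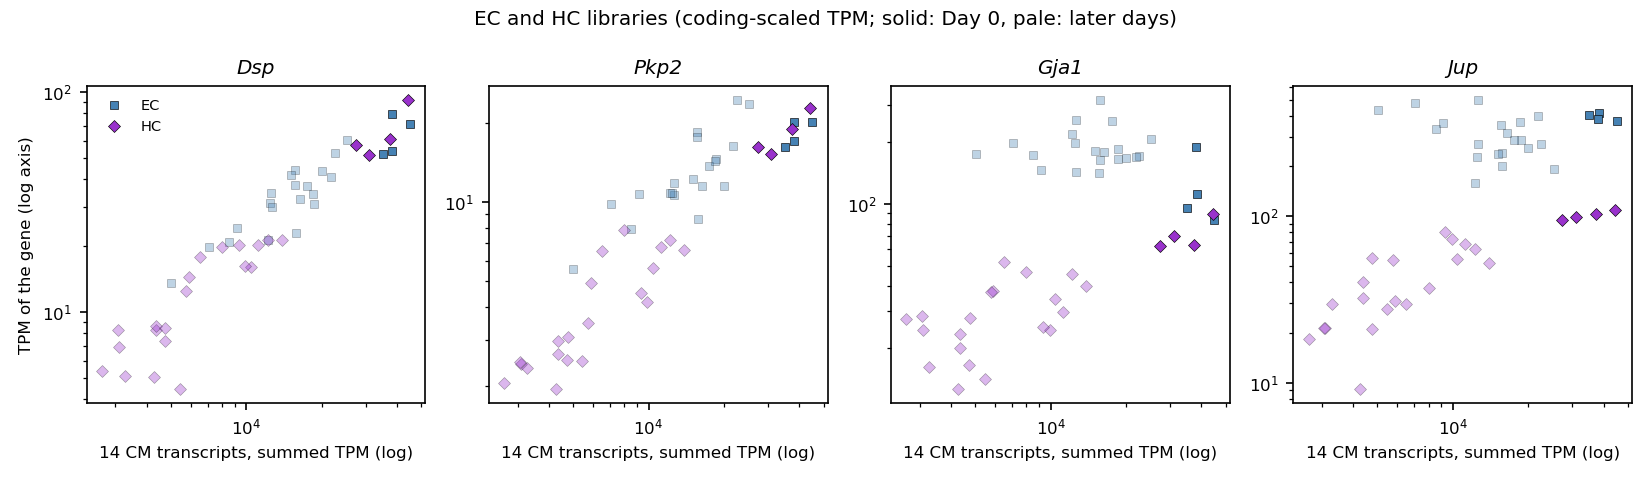
Coding-scaled TPM of Dsp, Pkp2, Gja1 and Jup in each EC and HC library against the summed coding-scaled TPM of 14 abundant CM transcripts in the same library (both axes log), solid at Day 0 and pale on later days. Dsp per 1000 TPM of the sum has group means of 1.60 to 2.62 over both isolates, and Jup in EC has 10.3 to 58.5.

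Day 28 was also compared with Day 3, to see which levels at the last day differed from those at Day 3. In CM 0 members were called (14.5% of all genes in either direction), with 0 at an unadjusted p under 0.05 in edgeR and 0 in DESeq2. In EC 1 was higher and 6 were lower (47.6% of all genes). Gja1 (-0.90 ± 0.10) and Cdh2 (-1.46 ± 0.18) were lower at Day 28 than at Day 3 without overlap, and Jup was higher (0.61 ± 0.10, adjusted p = 6.22e-05, edgeR). The call of Gja1 ended on coding-scaled TPM (-0.42, adjusted p = 0.111, limma). On log2(TPM + 1) of deposited TPM the change of Gja1 was 0.15 (adjusted p = 0.57, limma). Gja4 (-0.42) and Gja5 (-0.44) were called lower with overlapping groups, and each lost its call when 1 of several libraries was left out, as did Pkp2. None of these 3 passed without the shallow or unusual libraries (adjusted p = 0.0955, 0.0846 and 0.0888).

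In FB 1 member was higher and 4 were lower at Day 28 than at Day 3 (50.8% of all genes in either direction). Jup was higher (0.71 ± 0.13), and Cdh2 was lower (-1.98 ± 0.23, adjusted p = 6.37e-07, edgeR). The lower values of Dsp (-1.54), Pkp2 (-1.76) and Gjc1 (-0.77) are set against Day 3 replicates 2 and 3, and without the shallow or unusual libraries the log2 change of Dsp was 0.72 and that of Pkp2 -0.89 (adjusted p = 0.107, edgeR). In HC 3 members were higher and 0 lower (41.9% of all genes): Gja4 (1.75 ± 0.28), Jup (1.49 ± 0.12) and Gjc1 (1.40 ± 0.19). In the downward direction 1 member had an unadjusted p under 0.05, Gja1 (-0.46, adjusted p = 0.0736), and DESeq2 called 0.

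Whether a change at Day 3 differed between cell types was tested over the 32 libraries of Day 0 and Day 3, as the log2 change in a cell type minus the mean change in the other 3. In HC all 8 members had lower changes than elsewhere (25.5% of 20017 genes differed in either direction), from -1.35 for Jup to -3.44 ± 0.23 for Cdh2. In FB 4 members had higher changes (28.3% of all genes): Cdh2 (3.99 ± 0.23, adjusted p = 2.29e-13, edgeR), Pkp2 (2.90), Dsp (2.53) and Gjc1 (1.22). Without the shallow or unusual libraries the difference of Dsp in FB was 0.22 (adjusted p = 0.608). In EC 2 members had higher changes (11.9% of all genes), Gja1 (1.29 ± 0.24, adjusted p = 0.000695) and Jup (0.64, adjusted p = 0.0388), and in CM 3 did (18.7%), Gja4 (1.73), Gjc1 (1.31) and Jup (1.00). Without the shallow or unusual libraries Dsp (1.12, adjusted p = 0.000201, edgeR) and Pkp2 (0.62, adjusted p = 0.0108) were also called higher in CM. The call of Jup in EC ended in 5 alternatives, among them RLE scaling (adjusted p = 0.0905), coding-scaled TPM (0.221, limma), the replicate block (0.0536) and the fit without the shallow or unusual libraries (0.205). Each difference in CM, EC and FB includes the fall in HC on its other side, since the HC libraries are among the 3 other types. The differences in HC have CM, EC and FB on their other side, and so include the rise of Cdh2 in FB (log2 3.23).

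The make-up of the connexins differed between the isolates. Over 20 connexin genes, Gja1 held 91.8% ± 1.19 of the summed connexin TPM in CM at Day 0, 72.3% ± 1.64 in HC, 64.1% ± 3.72 in FB and 41.2% ± 9.86 in EC (SD, n = 4 each). EC was the most mixed, with 25.8% ± 6.98 for Gja4, 23.1% ± 3.69 for Gjc1 and 5.99% ± 1.59 for Gja5. At Day 3 Gja1 held 62.0% ± 6.09 of the connexin TPM in EC and Gjc1 11.6% ± 0.919, and in CM Gja1 held between 88.7% and 91.8% on average on every day. The 16 connexins outside the 4 members held 23.4% ± 5.45 in FB at Day 3, against 8.70% ± 0.836 at Day 0, and 35.0% ± 25.8 in HC at Day 28. The last value rests on the unusual replicates 2 and 4, without which the other 2 libraries averaged 12.8%.

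**Figure D5:**
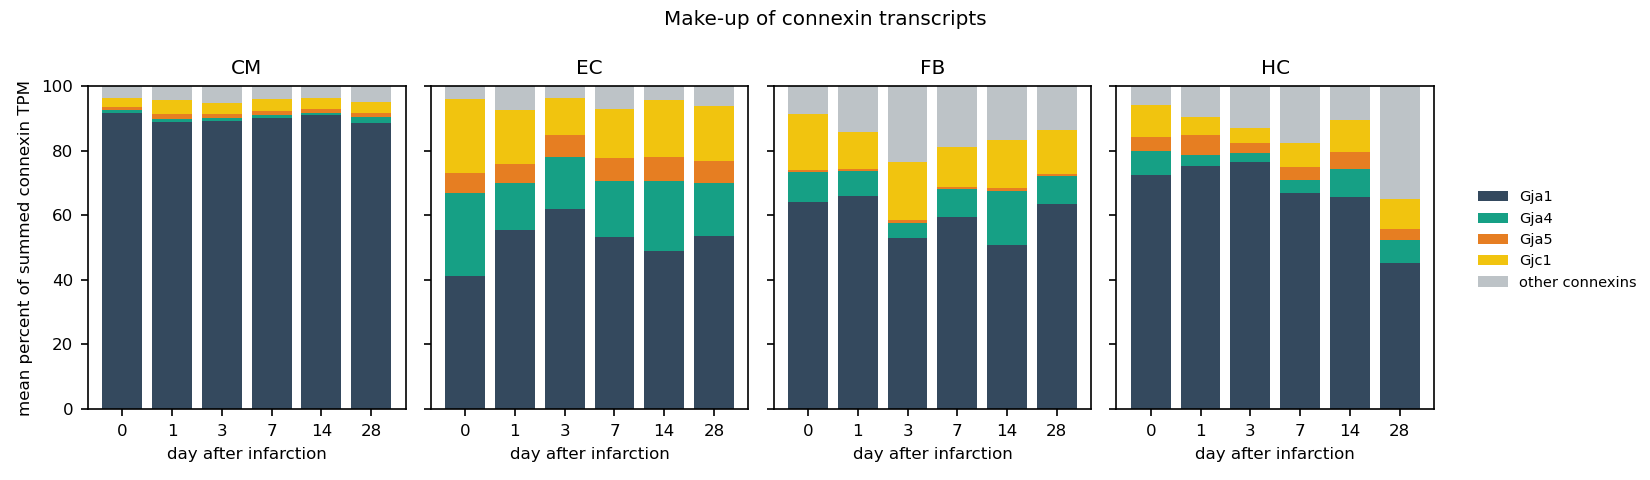
Mean share of the summed connexin TPM (percent, n = 4 a bar) held by Gja1, Gja4, Gja5, Gjc1 and the 16 other connexins, by cell type and day. Gja1 fills about the whole bar in CM (91.8% at Day 0) and less in EC (41.2% at Day 0 and 62.0% at Day 3).

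Of the 16 other connexins, Gja3 (Cx46, best known from the lens) was the highest in CM, with a mean of 8.81 coding-scaled TPM over the 24 CM libraries. In FB Gjb5, known from the epidermis, averaged 7.75 coding-scaled TPM.

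The isolates whose files list transcripts show which form carried each member. The first coding form held 95.9% of Gja1 TPM in CM at Day 0, 94.2% of Pkp2, 90.6% of Cdh2 and 84.8% of Gjc1, and Gja4 has a single listed form. Dsp was carried by Dsp-201 to 71.7% in CM at Day 0 and 94.6% in EC. Jup differed: in CM, Jup-204, annotated as a processed transcript without a coding frame, held 42.4% ± 19.2 of Jup TPM at Day 0 and 73.0% ± 17.7 at Day 3 (SD, n = 4 each), and the coding form Jup-202 held 29.4% and 3.76%. In EC, Jup-202 held 55.0% at Day 0 and 46.4% at Day 3. Estimates of transcripts that share exons are uncertain, and these shares were not tested.

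The genes whose pattern over the 24 group means was most like that of a member, by Pearson r of log2(CPM + 1) among 10978 genes, are given as a description, since the points share libraries and the r largely follows cell type. Dsp was followed by Smyd1 (r = 0.999), Myom1 (0.999) and Fhod3 (0.998), which are known from the sarcomere and its assembly, and Pkp2 by Dusp27 (0.996), Tecrl (0.994) and Ddo (0.994). Gja1 was most like Enah (0.975), Pja2 (0.970) and Crip2 (0.970), Gja4 most like Jcad (0.977), Arhgef26 (0.970) and Ephb4 (0.970), and Gja5 most like Afap1l1 (0.966), Pkp4 (0.961) and Ica1 (0.960). Gjc1 came with Amotl2 (0.973), Uaca (0.965) and Tspan9 (0.962), Cdh2 with Trabd2b (0.975), Lclat1 (0.973) and Baiap2l1 (0.968), and Jup with Klf12 (0.971), Pdzd2 (0.970) and Tjp1 (0.966).

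Other genes of the same junctions were counted at Day 3 against Day 0, where of all genes 16% rose and 14.6% fell in CM, 23.2% and 22.3% in EC, 25.8% and 23.3% in FB, and 23.2% and 23.2% in HC. Of the other desmosome genes, 1 rose and 1 fell of 6 tested in CM, 0 rose and 2 fell of 7 in EC, 4 rose and 1 fell of 8 in FB, and 1 rose and 5 fell of 7 in HC. Without the shallow or unusual libraries 1 rose and 0 fell of 8 in EC, and 5 rose and 1 fell of 9 in FB. The desmosomal cadherin Dsc2 fell in CM (log2 -0.61 ± 0.14, adjusted p = 0.00151, edgeR), with 11.4 ± 1.43 CPM at Day 3 and 17.3 ± 0.767 CPM at Day 0, in the comparison in which Dsp fell. In HC both Dsc2 (-3.21 ± 0.31) and Dsg2 (-2.61 ± 0.24), the partners of Pkp2 and Dsp in the plaque, fell beside them. Desmin (Des) fell in EC (-0.80 ± 0.19) and rose in FB (2.22 ± 0.41). Without the shallow or unusual libraries it was not called in EC (-0.52, adjusted p = 0.0582, edgeR) and rose by 1.08 in FB, where the other 2 Day 3 libraries had the lower values. Periplakin (Ppl) fell in FB (-1.20 ± 0.23).

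Of the adherens junction and area composita genes, 0 rose and 3 fell of 14 tested in CM, 3 rose and 8 fell of 14 in EC, 8 rose and 1 fell of 14 in FB, and 0 rose and 12 fell of 14 in HC. In CM the catenin Ctnna3 (-0.84 ± 0.20) and the Z-disc gene Ldb3 (-0.31 ± 0.10) fell while Cdh2 was not called. In EC vinculin (Vcl) rose (0.82 ± 0.20, and 0.35 without the shallow or unusual libraries) and the catenin Arvcf fell (-1.70 ± 0.27, and -0.93 without them). In FB, Vcl rose (0.72 ± 0.15) with Cdh2, and afadin (Afdn) fell (-0.98 ± 0.17, and -0.61 without those libraries). Without them 1 gene of this list rose and 6 fell of 14 in EC, and 3 rose and 3 fell of 15 in FB.

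Other cadherins changed in FB beside Cdh2. P-cadherin (Cdh3) had 16.6 ± 5.01 CPM at Day 3 and 0.116 ± 0.0569 CPM at Day 0 (log2 7.13 ± 0.58, adjusted p = 5.83e-09, edgeR), and Cdh19 fell (-1.87 ± 0.35). Of 8 other cadherins tested, 3 rose and 2 fell in FB and 1 rose and 6 fell in HC, where Cdh1, the epithelial cadherin, was the one that rose (3.84 ± 0.35) while all members fell. Among channels and scaffolds of the disc, Kcnj2 (-0.78 ± 0.20) and Ank2 (-0.64 ± 0.13) fell in CM. Cxadr, a receptor of the disc and of epithelia, had 42.4 ± 14.7 CPM at Day 3 and 0.779 ± 0.378 CPM at Day 0 in FB (log2 5.82 ± 0.55), and Tjp1, which binds Cx43, fell there (-1.01 ± 0.22, and -0.55 without the shallow or unusual libraries). In EC the arterial list of 11 tested genes had 1 that rose and 2 that fell at Day 3 (0 and 2 of 12 without the shallow or unusual libraries), among them Nrp1 (-0.81 ± 0.09), while Gja4 and Gja5 were not called.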

How the data were processed

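Total RNA of 96 pools was trimmed (Trim Galore), aligned in a 2-pass run (STAR 2.28) and quantified with Salmon by the authors against mm10. The deposited estimated counts were made by the authors with Salmon per transcript (56 files) or per gene (40 files). Files of CM and EC, and of HC at Day 1 and Day 7, list transcripts, and the others list genes. The deposited TPM values were length-corrected by the authors with Salmon. Entries were summed to 50906 genes with the GENCODE M21 annotation, and those without a gene (at most 0.382% of reads) were left out.

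Counts were rounded, filtered by filterByExpr, scaled by TMM and tested in edgeR 4.0.16 (R 4.3.3; quasi-likelihood, robust), 1 fit a cell type over 24 libraries, with Benjamini-Hochberg adjustment over all genes. Cell types were compared over 96 libraries, and changes at Day 3 between cell types over 32. Small and mitochondrial RNAs dominated deposited TPM, so levels are given after rescaling to nuclear protein-coding genes, a choice made after seeing the data. The fits were tested on simulated data. At 2664338 to 55758471 estimated reads a library, precision at low CPM is limited by depth.

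The members and lists were chosen with earlier results of these data known. All 8 members are named. From each other list, up to 2 called genes of the highest and 2 of the lowest change at Day 3 qualified, at a mean of at least 5 CPM and without overlap between the groups. Alternatives were DESeq2 1.42.0, RLE scaling, no filter, limma 3.58.1 on log2(TPM + 1 or 0.1) and on coding-scaled TPM, only the 8 libraries compared, a replicate block, and fits without single libraries or the 8 shallow or unusual ones. For the other lists the last of these was chosen after seeing the data. The file columns of effective length and transcript length were used for no test. Promoters are from RefSeq (GRCm38.p6). A few genes of the other lists are not reported here.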

Additional observations from a re-analysis of the deposited data

Results flagged for a closer look

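In 9 of 192 groups of 4 libraries, 1 library stood far from the other 3 in CPM, where chance alone sets about 1 in 20 groups apart. In CM these were replicate 1 at Day 7, with 215 CPM of Gja1 and 9.61 CPM of Jup, and for Pkp2 replicate 1 at Day 0 with 44.9 CPM and replicate 2 at Day 3 with 33.9 CPM. In EC they were replicate 4 at Day 1 (34.5 CPM) and replicate 2 at Day 28 (38.4 CPM) for Gjc1, and replicate 2 at Day 7 for Pkp2 (6.72 CPM). Replicate 4 of FB at Day 1 held 5.55 CPM of Gja4, and replicate 3 of HC at Day 14 held 5.67 CPM of Gja5.

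In 17 of 32 tests the log2 change at Day 3 in a cell type differed from the mean change in the other 3 at an adjusted p under 0.05 in edgeR, where the share of all genes that differed was 18.7% for CM, 11.9% for EC, 28.3% for FB and 25.5% for HC. All 8 differences in HC were negative, with -1.54 for Gja1, -2.86 for Gja4, -2.31 for Gja5, -2.55 for Gjc1, -2.66 for Dsp, -2.86 for Pkp2, -3.44 for Cdh2 and -1.35 for Jup. In FB they were positive, with 3.99 for Cdh2, 2.90 for Pkp2, 2.53 for Dsp and 1.22 for Gjc1, and that of Dsp was 0.22 without the 8 shallow or unusual libraries. In CM, Gja4 differed by 1.73, Gjc1 by 1.31 and Jup by 1.00, and in EC, Gja1 by 1.29 and Jup by 0.64, the last of which did not pass in 5 alternatives. The 4 sets of differences use the same 32 libraries and are not independent of each other.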

How the results depend on the processing

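Of 87 member calls, 72 held whichever 1 library was left out and 15 ended in at least 1 of the 96 fits without a library. Member results called of 40 then ranged from 3 to 7 in CM (6 with all libraries), 15 to 18 in EC (17), 9 to 13 in FB (12) and 36 to 37 in HC (37), and Day 28 against Day 3 gave 12 to 16 of 32 (15). Calls over all genes and 5 days ranged from 8000 to 11137 in CM (10540), 22667 to 34139 in EC (29521), 14411 to 20117 in FB (17854) and 23308 to 31541 in HC (28668), and from 26871 to 28672 for Day 28 against Day 3 (28135).

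The 6 member calls in CM depended most on the setting: they numbered 2 without a filter, 3 on log2(TPM + 1), 1 on coding-scaled TPM and 2 with only the 8 libraries compared. Calls over all genes in CM were 5926 on log2(TPM + 1), 5283 on coding-scaled TPM and 5933 with 8 libraries, in EC 16115 without the shallow or unusual libraries, in HC 12306 on log2(TPM + 1) and 13999 on log2(TPM + 0.1), and for Day 28 against Day 3 18369 with 8 libraries. Member calls were 7 in FB on both TPM scales, 24 in HC on log2(TPM + 0.1), and 9 for Day 28 against Day 3 on log2(TPM + 1) and 10 without the shallow or unusual libraries. The cause of these shifts was not tested.

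With the replicate number as a block (replicate block), 250 of 256 member results kept their call or its absence, and the members called were 7 in CM, 17 for EC, 13 for FB and 37 for HC. The block ended the calls of Gja5 (-0.45, adjusted p = 0.0578) in EC and Dsp (-1.40, 0.0839) in FB at Day 28 against Day 3 and of the EC difference in Jup (0.62, 0.0536), and it added Gjc1 in CM at Day 1 (0.40), Jup in FB at Day 14 (-0.33) and the FB difference in Gja5 (1.33). Same-numbered libraries deviated together in all 4 pairs in 2 of 20 comparisons of a day and 0 of 36 pairs of cell types, and in CM the 4 correlations with Day 0 were 0.289 to 0.499 at Day 1 and 0.242 to 0.519 at Day 3. The cell types of a day come from the same mice, but no source used here says that equal numbers mark the same pool, so the fits are given without the block.

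Directions turned mostly on deposited TPM, and the cause was not tested. On log2(TPM + 1) and log2(TPM + 0.1), the log2 change of Gja1 in EC was 1.28 and 1.40 on Day 7 (0.64 on coding-scaled TPM), then 1.16 and 1.28 on Day 14, and 1.24 and 1.37 on Day 28. On the same scales it was 0.76 and 1.23 on Day 7 and 0.67 and 1.10 on Day 28 for Gja5 in EC, 0.34 and 0.41 on Day 7, 0.52 and 0.62 on Day 14 and 0.45 and 0.54 on Day 28 for Gjc1, 0.26 and 0.43 on Day 14 for Pkp2, and 0.67 and 0.99 on Day 7 and 0.36 and 0.58 on Day 14 for Cdh2. At Day 3, Gja5 (0.10 and 0.51), Dsp (0.18 and 0.21) and Pkp2 (0.53 and 0.69) in CM and Gjc1 (-0.95 and -1.26) in FB turned. For Day 28 against Day 3, so did Gja1 (0.15 and 0.16), Gja4 (0.37 and 0.46), Gja5 (0.26 and 0.38), Dsp (0.11 and 0.15) and Pkp2 (0.16 and 0.30) in EC and Gjc1 (0.13 and 0.21) in FB. On log2(TPM + 1), the difference from the other types turned to -0.12 for Gja1, -0.54 for Gja5, -1.31 for Gjc1 and -2.55 for Jup in CM, 0.50 for Gja1 in FB and 0.13 for Dsp in HC, and that of changes at Day 3 to -0.88 for Gja4 and -0.65 for Gjc1 in FB and 0.88 for Cdh2 in CM. Coding-scaled TPM gave -0.30 for Gja5, -0.93 for Gjc1 and -1.42 for Jup in CM and 0.43 for Pkp2 in EC against the other types. Day 0 libraries alone gave -0.41 for Gja1 in EC, -0.44 for Gjc1 in CM and 0.89 for Dsp and 0.42 for Pkp2 in HC. Without the shallow or unusual libraries, Gjc1 (-0.045) and Dsp (-1.01) in FB at Day 3 and Dsp in FB at Day 28 against Day 3 (0.72) turned.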
